A study of Mus musculus with 106 samples.

Results

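The dual specificity phosphatases described here were 10 genes, Dusp1 to Dusp8, Dusp10 and Dusp16, of the 21938 protein-coding genes in the annotation. They were taken by name and not by a measured value, though earlier results of these data were known. Each gene was read at its promoter, which reached 1 kb to either side of any of its start sites, and over its gene body with flanks of 20 kb. Both readings used every deposited peak list of 2 histone marks, H3K4me3, found at promoters, and H3K27ac, found at promoters and enhancers in use.

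Dual specificity phosphatases remove phosphate from the threonine and the tyrosine that switch on a mitogen-activated protein (MAP) kinase, and so end its signal. Many of these genes are themselves induced by the MAP kinases they switch off, which makes them feedback brakes. DUSP1, DUSP2, DUSP4 and DUSP5 act in the nucleus, DUSP6 and DUSP7 act on ERK in the cytoplasm, and DUSP8, DUSP10 and DUSP16 prefer the stress kinases JNK and p38. DUSP3 is a small atypical member that lacks the domain by which the others bind kinases. In macrophages DUSP1 is best known as a brake on p38 and on cytokine production after lipopolysaccharide (LPS), a component of the bacterial wall.

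The libraries came from wild-type C57BL/6J mice, aged 12 to 14 weeks when assigned to be controls or to be made diabetic with streptozotocin. That drug kills insulin-producing cells, and was given at 42 to 45 mg/kg a day for 5 days. Diabetic animals were used 6 weeks after the last dose, with blood glucose above 13.9 mmol/L. The cells labeled HSC were bone marrow depleted of lineage-positive cells, so they are an enriched and not a pure stem cell population. BMDMs (bone marrow-derived macrophages) were grown for 7 days in 5 mmol/L glucose with L929-conditioned medium. They were left unstimulated or given LPS at 100 ng/mL with IFN-γ at 10 ng/mL, for 16 hours in the study's general BMDM methods. Its ChIP-seq methods give no stimulation time. For each mark there were 6 groups, control and diabetic in each of HSCs, unstimulated BMDMs and LPS+IFN-γ BMDMs. Of the 12 groups 10 held 6 libraries, and diabetic unstimulated BMDMs held 5 in each mark, with no replicate 3. The lists numbered 70, 35 for each mark, of 106 samples, and the other 36 samples were inputs. A replicate is an animal, as the study's methods count n, but whether a number marks the same animal across groups was not stated.

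The promoter sequences of 5 members are shown because 4 of them, Dusp1, Dusp16, Dusp3 and Dusp7, differed in H3K27ac between HSCs and BMDMs, and because Dusp8 shares with Dusp1 the full cyclic AMP response element (CRE). RefSeq promoters on GRCm38.p6 were found for 9 of the 10 members. Each stretch below begins 250 bases before the RefSeq start and stops before the first annotated exon base, and it is read 5′ to 3′ on the strand of the gene. Capitals mark matches, on either strand, to the motifs that were searched.
Dusp1: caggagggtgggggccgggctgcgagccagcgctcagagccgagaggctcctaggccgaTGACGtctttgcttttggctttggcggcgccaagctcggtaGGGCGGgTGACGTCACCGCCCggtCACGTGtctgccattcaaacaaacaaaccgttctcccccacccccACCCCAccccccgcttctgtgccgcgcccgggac
Dusp16: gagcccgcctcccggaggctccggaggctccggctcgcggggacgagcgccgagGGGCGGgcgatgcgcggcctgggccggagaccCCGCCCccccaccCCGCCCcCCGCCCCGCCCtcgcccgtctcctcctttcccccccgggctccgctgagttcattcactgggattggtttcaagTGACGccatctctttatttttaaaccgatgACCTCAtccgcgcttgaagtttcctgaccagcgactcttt
Dusp8: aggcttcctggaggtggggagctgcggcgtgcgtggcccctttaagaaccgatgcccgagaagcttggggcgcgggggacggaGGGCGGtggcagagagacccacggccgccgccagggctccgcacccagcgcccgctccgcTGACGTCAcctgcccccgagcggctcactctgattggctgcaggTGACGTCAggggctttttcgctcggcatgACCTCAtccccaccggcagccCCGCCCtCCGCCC
Dusp3: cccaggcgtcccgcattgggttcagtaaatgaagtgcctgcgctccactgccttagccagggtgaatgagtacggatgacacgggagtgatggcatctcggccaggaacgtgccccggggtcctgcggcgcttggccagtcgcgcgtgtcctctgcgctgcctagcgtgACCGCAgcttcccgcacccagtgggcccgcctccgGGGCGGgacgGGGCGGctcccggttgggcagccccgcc
Dusp7: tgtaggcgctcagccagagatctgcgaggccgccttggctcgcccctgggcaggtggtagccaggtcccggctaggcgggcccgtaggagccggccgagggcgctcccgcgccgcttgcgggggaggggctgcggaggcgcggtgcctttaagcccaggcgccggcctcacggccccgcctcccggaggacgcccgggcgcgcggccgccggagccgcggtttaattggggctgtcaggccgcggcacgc
The Dusp1 stretch lies at chr17:26508520-26508722 on the minus strand, that of Dusp16 at chr6:134792629-134792878 on the minus strand and that of Dusp8 at chr7:142095285-142095534 on the minus strand. The Dusp3 stretch lies at chr11:101984800-101985041 on the minus strand and that of Dusp7 at chr9:106368382-106368631 on the plus strand.

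In the GENCODE M21 annotation of GRCm38 the nuclear phosphatase genes lie at chr17:26505590-26562128 (Dusp1, minus strand), chr2:127336159-127338376 (Dusp2, plus), chr8:34807297-34819894 (Dusp4, plus) and chr19:53529109-53542431 (Dusp5, plus). The cytoplasmic ERK phosphatase genes lie at chr10:99263231-99267489 (Dusp6, plus) and chr9:106368632-106375724 (Dusp7, plus). Those of the JNK and p38 group lie at chr7:142079490-142095843 (Dusp8, minus), chr1:184013302-184075636 (Dusp10, plus) and chr6:134715468-134792625 (Dusp16, minus), and Dusp3 lies at chr11:101971143-101987013 (minus). The merged H3K27ac promoter regions of Dusp1, Dusp2, Dusp3 and Dusp10 also cover a promoter of a neighbor, Ergic1, Astl, Cfap97d1 and 1700056E22Rik, so that a peak there may not belong to the member alone.

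Motifs were counted in windows of 300 bases, 250 before and 50 after each start, and set beside the share of all 32841 RefSeq promoters that hold them. The full CRE, TGACGTCA, stood in Dusp1 and Dusp8 among the 9 members searched, and in 1.79% of all promoters. In Dusp1 it spanned bases 143 to 136 before the start, and in Dusp8 there were copies at bases 107 to 100 and 63 to 56. Its shorter form, CGTCA, lies inside the full element and was found in 5 of 9 members (Dusp1, Dusp2, Dusp5, Dusp8 and Dusp16), against 20.8% of all promoters. The Sp1 motif GGGCGG was held by 8 of 9, all but Dusp6, against 35.7%. The Runx motif TGNGGT was held by Dusp1, Dusp3, Dusp8 and Dusp16, 4 of 9, against 45.8% of all promoters. The E-box CACGTG was in Dusp1 and Dusp2 (7.15% of all promoters), and the CArG box, which serum response factor binds, was in Dusp5 (1.63%). No window held the AP-1 motif TGANTCA (7.81%), the Ets motif CCGGAA (14.9%), the Stat motif TTCNNNGAA (8.30%), TATAAA (13.6%) or the NF-kB motif (8.46%). All 9 windows were rich in G and C, from 57.3% in Dusp6 to 78.7% in Dusp7, against a median of 52.7% over all promoters. The Dusp7 stretch above holds none of the motifs, and its Sp1 match lay after the start. These matches describe letters in a window and say nothing of whether a factor was bound.

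The lists held 13730 to 277213 peaks (median 110154), and no read counts, so the depth behind a value is unknown. A member was therefore placed by the rank of its best peak within its own list, ordered by the deposited −log10 p, where rank 1 is the strongest peak. Ranks past 20000 or absent were set to 20001 before any test. H3K27ac promoters of 8 stem and progenitor genes were within that limit for 4 to 8 genes per library in HSCs, 0 to 6 in unstimulated BMDMs and 0 to 5 in LPS+IFN-γ BMDMs. For 8 macrophage genes the numbers were 0 to 2, 2 to 4 and 2 to 6. Kit, a defining stem and progenitor gene, was within it in 11 of 12 HSC, 1 of 11 unstimulated and 0 of 12 LPS+IFN-γ BMDM libraries. The macrophage receptor gene Csf1r was within it in 3 of 12, 10 of 11 and 11 of 12. Among 3 erythroid genes, 1 to 3 were within the limit in HSCs and 1 in each BMDM library. Of 12 LPS and IFN-γ response genes, 3 to 6 were within the limit in unstimulated BMDMs (median 4) and 4 to 6 with LPS+IFN-γ (median 5). In H3K4me3 that median was 4 in both, and the stem and progenitor genes had a median of 7 in HSCs and in unstimulated BMDMs. These lists thus hardly separated those states. Stimulation was also checked with H3K27ac regions, picked from these data, that nearly separated the diabetic BMDM libraries by label, 592 held with LPS+IFN-γ and 424 held without. Read in control BMDMs, they went against the label in 4 of 12 libraries, LPS+IFN-γ replicate 5 and unstimulated replicates 1, 5 and 6. The same check in H3K4me3, on 132 and 196 regions, went against the label in control unstimulated replicates 1, 3, 5 and 6. The shares held were close in control unstimulated 3 (50.8% and 48.5%) and in control LPS+IFN-γ 5 (50.8% and 50.0%). The main differences are given with and without the libraries in doubt.

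Every member had an H3K27ac promoter peak in every library (350 of 350 pairs of member and list), and all of these ranked within 20000. Across the 35 libraries Dusp1 stood highest, with a median rank of 223 (lowest 20, highest 2067) and a median enrichment of 12.7-fold over background. Dusp10 followed at 1090 (75 to 8571), Dusp16 at 1423 (19 to 4919) and Dusp4 at 1811 (64 to 9055). A middle group held Dusp6 at 2492 (368 to 7042), Dusp5 at 2649 (279 to 6291) and Dusp3 at 2752 (314 to 7559). Dusp8 at 4146 (634 to 10416), Dusp7 at 6323 (2044 to 16300) and Dusp2 at 6702 (1579 to 14237) stood lowest. The ranges of all neighbors in this order overlapped. In HSCs alone, the ranks of Dusp1 (up to 508) and Dusp16 (up to 962) did not reach those of Dusp5, which began at 1385. Median peak widths ran from 1017 bp for Dusp3 to 4048 bp for Dusp4, and whether width bears on rank was not tested.

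**Figure D1:**
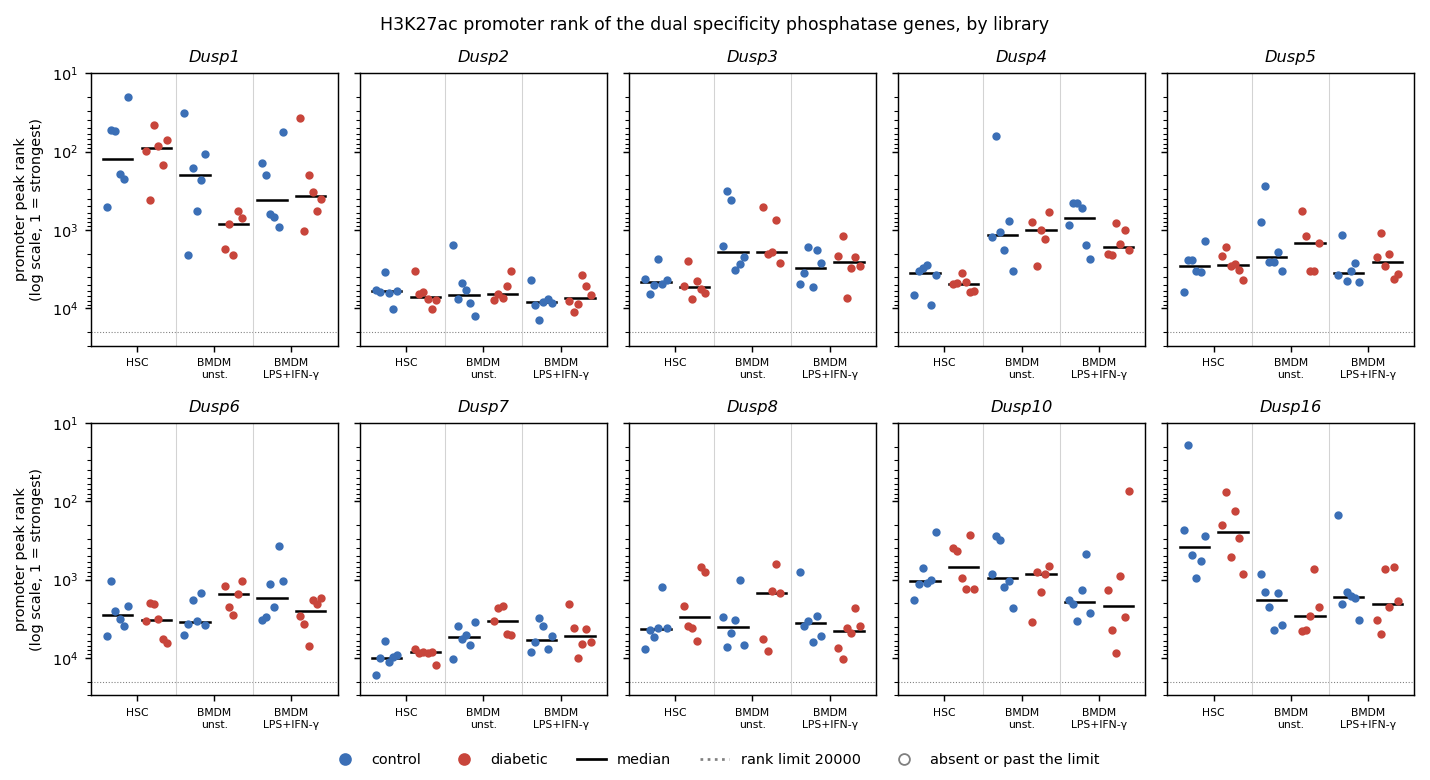
Rank of the best H3K27ac promoter peak of each of the 10 members (log axis, rank 1 is the strongest peak of a list) in every library, by cell state and disease, with bars at the group medians. Dusp1 lies near the top in all states, Dusp16 is nearer the top in HSCs (median 282.5) than in unstimulated BMDMs (2244), and Dusp4 shows the opposite order (4693.5 against 1071).

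The comparison of HSCs with unstimulated BMDMs asks how the marking of these genes differs between precursors and the macrophages grown from bone marrow. Among the 10 members, H3K27ac promoter rank differed for 5, beside 33.9% of all 13102 genes tested. Dusp16 and Dusp1 were nearer the top of the list in HSCs, and Dusp4, Dusp3 and Dusp7 were nearer the top in BMDMs. The median difference of the 10 members was −0.29 on the log2 scale of rank, and that of all genes was 0.14. Positive differences are toward the top of the list in HSCs. Without the 4 control BMDM libraries that went against their labels in H3K27ac, the same 5 members passed, with 3.24 for Dusp16, 2.86 for Dusp1, −2.63 for Dusp4, −2.23 for Dusp3 and −1.23 for Dusp7. Tests are limma on log2 rank over all 35 libraries, with Benjamini-Hochberg adjustment over all genes, and the mean of the control and diabetic differences.

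Among the nuclear, inducible phosphatases, Dusp1 ranked in control HSCs at 508, 53, 55, 196, 223 and 20 in replicates 1 to 6, and in diabetic HSCs at 97, 421, 46, 84, 148 and 71. In control unstimulated BMDMs it ranked at 32, 2067, 160, 572, 233 and 108, and in diabetic ones at 1749, 843, 2060, 570 and 712 (replicates 1, 2, 4, 5 and 6). All 12 HSC libraries lay above the BMDM median of 572, but 4 control BMDM libraries lay inside the HSC range. The difference was 2.2 (SE 0.69, adjusted p = 0.0116), a 4.61-fold change in rank. In control libraries alone it was 1.15 (adjusted p = 0.493), and with peaks ranked by fold enrichment it was 1.63 (adjusted p = 0.155).

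Dusp4, whose product also acts on ERK and JNK in the nucleus, moved the other way. Its ranks in control HSCs were 6858, 3336, 3105, 2770, 9055 and 3713, and in diabetic HSCs 4913, 4800, 3554, 4587, 6268 and 5959. Control unstimulated BMDMs stood at 1238, 64, 1071, 1811, 759 and 3320, and diabetic ones at 795, 2880, 1002, 1311 and 598. Only 2 of the 11 BMDM libraries reached into the HSC range. The difference was −2.24 (SE 0.44, adjusted p = 8.12e-05), and with peaks ranked by fold enrichment it was −1.64 (adjusted p = 0.0824). Dusp5, an ERK phosphatase, had HSC ranks of 1385 to 6291 (median 2796) and BMDM ranks of 279 to 3378 (median 1898). Its difference of −0.87 did not pass the test (adjusted p = 0.0694). It did so when diabetic unstimulated replicate 4 or 5, control unstimulated replicate 6 or control HSC replicate 6 was left out, with adjusted p-values of 0.0421, 0.0437, 0.0415 and 0.0457. Dusp2, an immune cell phosphatase, had medians of 6224.5 in HSCs and 6590 in BMDMs, with overlapping ranges and a difference of −0.13 (95% CI −0.65 to 0.38).

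Of the cytoplasmic ERK phosphatases, Dusp7 ranked in control HSCs at 16300, 10113, 6074, 11327, 9722 and 9096, and in diabetic HSCs at 7752, 8712, 8316, 8598, 8289 and 12274. In control unstimulated BMDMs it ranked at 10284, 3866, 5780, 5044, 6737 and 3443, and in diabetic ones at 3336, 2314, 2166, 4950 and 5053. All HSC libraries were below the BMDM median, and the ranges overlapped through control BMDM replicates 1 and 5. The difference was −1.14 (SE 0.23, adjusted p = 0.000162). Dusp6, the best-studied ERK feedback phosphatase, had medians of 3159 in HSCs and 2263 in BMDMs and a difference of −0.45 (95% CI −1.17 to 0.27).

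Among the JNK and p38 phosphatases, Dusp16 differed most. It ranked in control HSCs at 235, 19, 483, 962, 575 and 275, and in diabetic HSCs at 200, 77, 514, 132, 290 and 859. Control unstimulated BMDMs stood at 854, 1428, 2219, 4346, 1463 and 3750, and diabetic ones at 4510, 4368, 2940, 727 and 2244. The ranges met only between 727 and 962. The difference was 3.11 (SE 0.56, adjusted p = 2.52e-05), an 8.66-fold change in rank between geometric means of 258 and 2230. Dusp8 had medians of 4149 and 3277 and a difference of −0.04 (95% CI −0.88 to 0.80). Dusp10, which restrains JNK and p38 in immune cells, had medians of 989.5 and 845 and a difference of 0.36 (95% CI −0.76 to 1.47).

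Dusp3, the atypical member, ranked in control HSCs at 4233, 6639, 4993, 2349, 4948 and 4330, and in diabetic HSCs at 5207, 2476, 7559, 4485, 5604 and 6396. In control unstimulated BMDMs the ranks were 1603, 314, 419, 3290, 2752 and 2203, and in diabetic ones 506, 2031, 1941, 758 and 2645. The groups overlapped only through 2 HSC and 3 BMDM libraries. The difference was −1.85 (SE 0.37, adjusted p = 0.000125). It was −0.37 (adjusted p = 0.599) when peaks were ranked by fold enrichment, the height of a peak and not its significance. The HSC libraries differ from BMDMs in the erythroid and other markers given above, whose part in these differences was not tested. Fewer cells with a mark and less of the mark per cell cannot be told apart in these bulk samples.

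**Figure D2:**
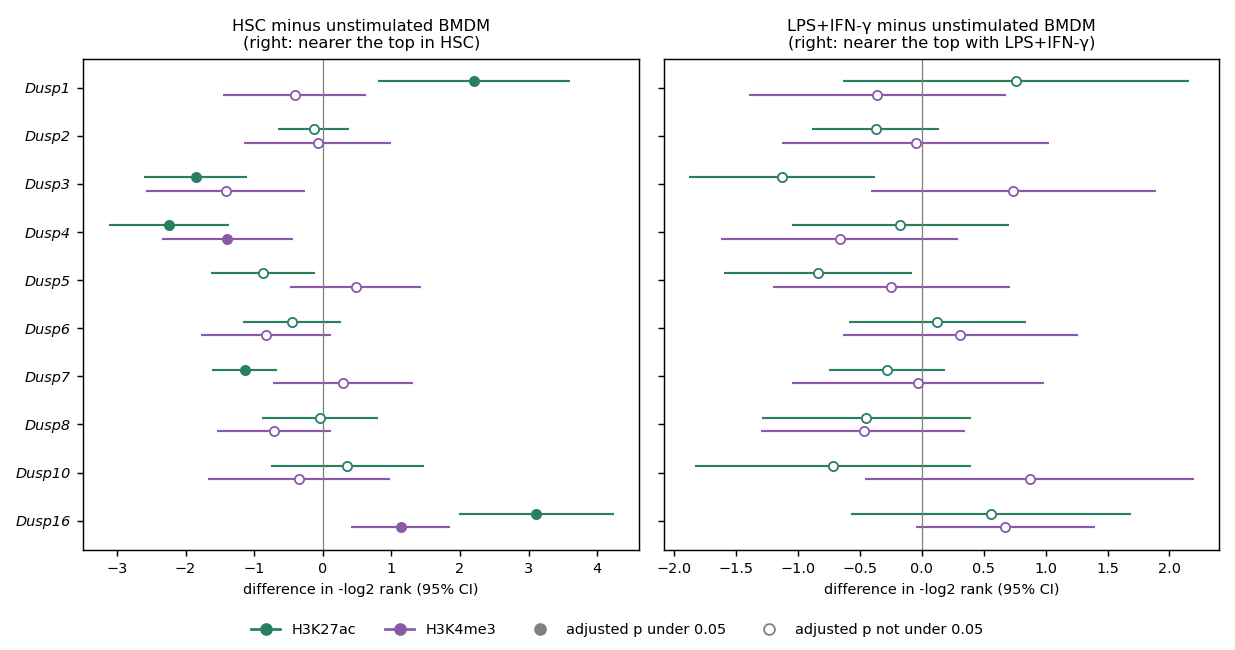
Difference in −log2 rank with its 95% confidence interval for each member's promoter, by mark, for HSCs and for LPS+IFN-γ BMDMs, each against unstimulated BMDMs. Positive values are toward the top of the list in the first-named state, and filled points have an adjusted p under 0.05. In H3K27ac, Dusp16 (3.11) and Dusp1 (2.2) lie to the right and Dusp4, Dusp3 and Dusp7 to the left, and no member is filled for LPS+IFN-γ.

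Around the members, 45 H3K27ac regions could be tested within the gene bodies and flanks, 20 of them at Dusp1, 5 at Dusp7, 4 at Dusp3, 3 each at Dusp4, Dusp5 and Dusp8, 2 each at Dusp2, Dusp6 and Dusp16, and 1 at Dusp10. Between HSCs and unstimulated BMDMs 15 of 45 regions differed, beside 33.0% of all 27951 regions, 5 toward the top in HSCs and 10 toward the top in BMDMs. The promoter regions of Dusp1, Dusp3, Dusp4, Dusp7 and Dusp16 were among them, and mostly rest on the same peaks as the promoter values above. Where a state lies past 20000 its rank is limited at 20001, so the differences below are smaller than those of the unlimited ranks. A region needed a rank within 20000 in 5 lists, so one past it in nearly all libraries of one state entered the test through the other, which fixes the direction of its difference. The p-value of such a region is not support for a difference. Without the 4 control libraries 13 regions differed.

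Of the 4 flanking regions of Dusp7, 2 were nearer the top in BMDMs. The region at chr9:106376564-106379985 (GRCm38), centered 9.64 kb beyond the start (distances are to a region's center), ranked from 12885 to absent in HSCs (median 52942.5). It ranked from 2860 to 13160 in unstimulated BMDMs (median 9256), and only the ends of the ranges touched. The difference was −1.24 (SE 0.19, adjusted p = 9.08e-07). The region 11.1 kb before the start, at chr9:106352429-106362643, had medians of 21458.5 in HSCs and 9510 in BMDMs (−1.0, SE 0.17, adjusted p = 9.51e-06), and its ranges also touched at their ends. LPS+IFN-γ BMDMs had medians of 8727.5 and 10287.5 in these regions, near those of unstimulated BMDMs.

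Within Dusp4, a region at chr8:34816353-34819117 lay 10.4 kb into the gene. It ranked from 18263 to absent in HSCs (median 39263.5) and from 7223 to 15792 in unstimulated BMDMs (median 9481). It was within 20000 in 1 of 12 HSC, 11 of 11 unstimulated and 12 of 12 LPS+IFN-γ libraries. The difference was −0.97 (SE 0.15, adjusted p = 2.43e-06). This region entered the test through BMDMs, so its p-value is not support for a difference. At Dusp3 the region at chr11:101980408-101983876, 2.65 kb into the gene, had medians of 34924 and 12062 (−0.67, SE 0.12, adjusted p = 3.13e-05). Among HSC libraries only diabetic replicate 2, at 14384, was within 20000, so this p-value is not support for a difference either. This region also covers a promoter of Cfap97d1.

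The Dusp1 locus spans 56.5 kb in the annotation, since a few start sites lie beside those of Ergic1 at its far end. A median of 13 peaks per H3K27ac list lay off its promoters and within the rank limit, against 5 for Dusp7 and 0 to 2 for the other members. Of the 20 Dusp1 regions, 4 differed between HSCs and BMDMs, and the promoter went opposite to the other 3. The promoter region at chr17:26506011-26509822 was nearer the top in HSCs (2.26, SE 0.77, adjusted p = 0.0204). A region 20.8 kb before the start, at chr17:26526926-26531697, was nearer the top in BMDMs, with HSC ranks of 14006 to 26808 (median 20246.5) and BMDM ranks of 1989 to 20070 (median 7646). It was within 20000 in 6 of 12 HSC and 10 of 11 BMDM libraries, with overlapping ranges, and the difference was −1.44 (SE 0.31, adjusted p = 0.000502). A region 68.0 kb before the start, at chr17:26572851-26580141, differed by −0.60 (SE 0.19, adjusted p = 0.0106). That call was lost with ranks limited at 10000 (−0.16, adjusted p = 0.259), in control (0.202) or diabetic libraries alone (0.0853), and without the 4 control libraries (0.0543). The fourth, 10.9 kb before the start, was within 20000 in 1 of 12 HSC and 9 of 11 BMDM libraries and differed by −0.45 (adjusted p = 0.0153). It entered the test through BMDMs, so this p-value is not support for a difference. It did not pass by fold enrichment (adjusted p = 0.127) or in control (0.211) or diabetic libraries alone (0.112). The region next to the promoter, 4.56 kb before the start, was within the limit in all 35 libraries, with medians of 12753 in HSCs, 10529 in unstimulated and 7638 in LPS+IFN-γ BMDMs, and did not pass the test.

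**Figure D3:**
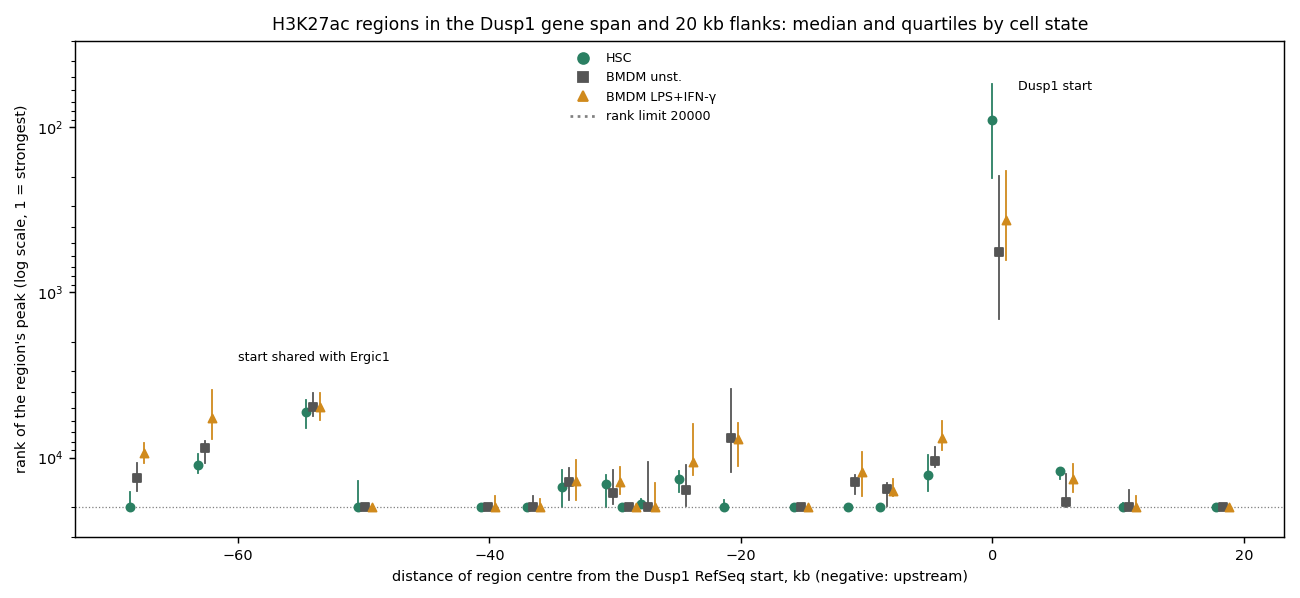
Median rank (log axis, with quartiles as bars) of the 20 tested H3K27ac regions of the Dusp1 locus in each cell state, against distance in kb from the RefSeq start. The promoter is at the top of the plot in all states, and the region 20.8 kb before the start is at the limit in HSCs (median 20246.5) and higher in unstimulated BMDMs (7646). Ranks past 20000 are drawn at the dotted limit.

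Regions toward the top in HSCs outside the Dusp1 and Dusp16 promoters were at other genes' promoters or weak. The one in the Dusp8 flank at chr7:142059590-142062246 is the Mob2 promoter, 34.4 kb from the Dusp8 start, with HSC ranks of 347 to 2271 (median 683) and BMDM ranks of 483 to 5366 (median 2903). The ranges overlapped, and the difference was 1.78 (SE 0.37, adjusted p = 0.000219). That difference did not pass by fold enrichment (adjusted p = 0.196) or in diabetic libraries alone (0.0727). The one in the Dusp16 flank is the Borcs5 promoter (0.33, SE 0.10, adjusted p = 0.00843), which did not pass in control (0.0550) or diabetic libraries alone (0.170). In the Dusp2 flank a region 7.01 kb before the start differed by 0.17 (SE 0.07, adjusted p = 0.0376). Both of these regions were within 20000 in 6 of 12 HSC libraries, 0 of 11 unstimulated and 0 of 12 LPS+IFN-γ libraries. All BMDM values were thus set to 20001, the regions entered the test through HSCs alone, and their p-values are not support for a difference. The Dusp2 call was also lost without the 4 control libraries (0.0887) and, with adjusted p-values of 0.050 to 0.0854, when any of 6 libraries was left out (diabetic unstimulated BMDM 1, 2 or 5, diabetic HSC 4, control HSC 2 or 3).

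H3K4me3 marked the members more evenly. A promoter peak was listed in 347 of 350 pairs, and the 3 absences, of Dusp4, Dusp6 and Dusp16, were all in diabetic HSC replicate 6, whose list of 13730 peaks was the shortest. Median ranks over 35 libraries ran from 3536 for Dusp10 and 3682 for Dusp1, through 4221 for Dusp7, 4317 for Dusp5, 4722 for Dusp8, 4940 for Dusp6 and 5094 for Dusp4, to 6129 for Dusp2, 6262 for Dusp3 and 7524 for Dusp16. The ranges of every pair of neighbors overlapped. Dusp1 did not stand apart in this mark. Its best H3K4me3 promoter peak was at the start sites beside Ergic1 in 22 of 35 libraries, whereas its best H3K27ac peak was at the RefSeq start in 34 of 35.

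**Figure D4:**
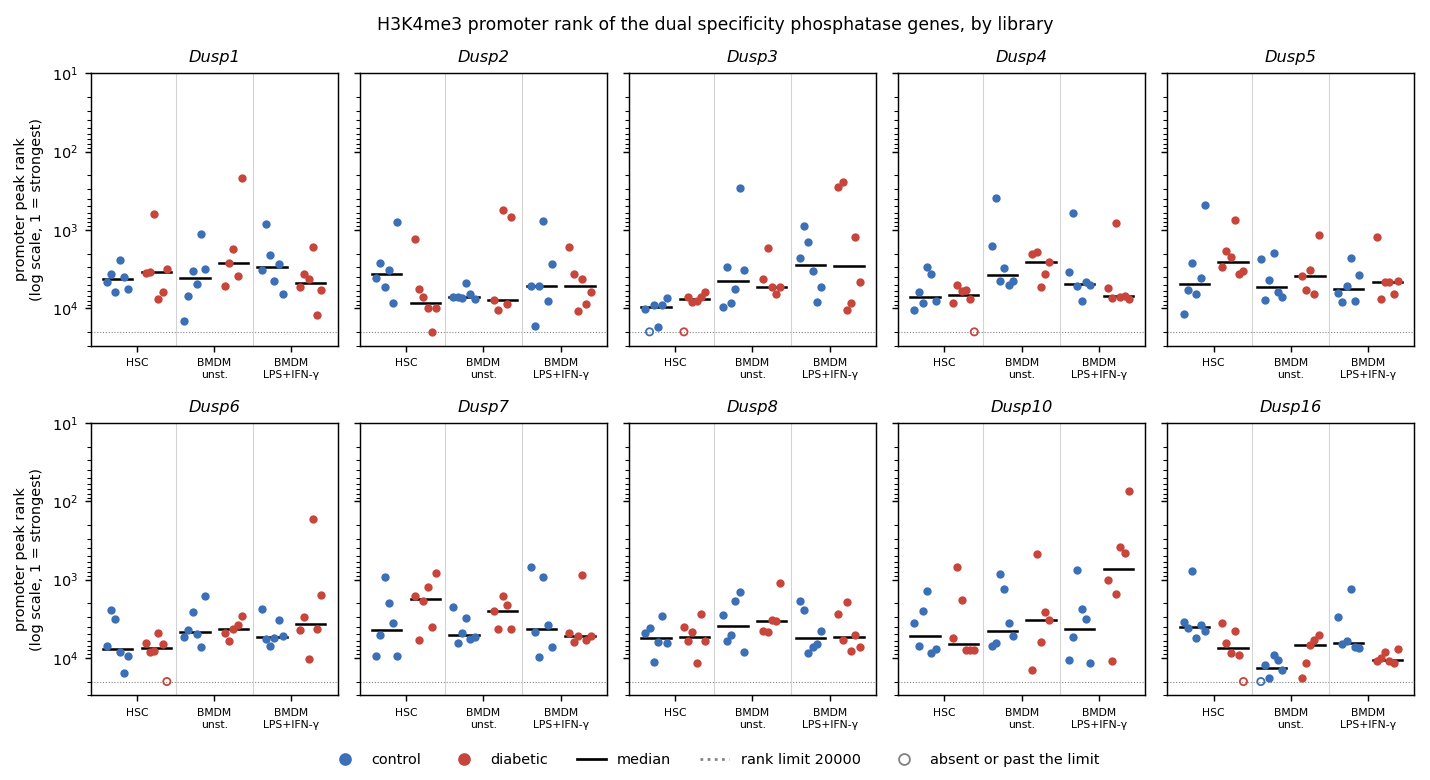
Rank of the best H3K4me3 promoter peak of each of the 10 members (log axis) in every library, by cell state and disease, with bars at the group medians and absent or limited peaks at the bottom. Dusp16 has a median of 4582.5 in HSCs and 11492 in unstimulated BMDMs, and the spread within most groups is wide.

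Between HSCs and unstimulated BMDMs 2 of 10 members differed in H3K4me3, beside 12.3% of all 14196 genes, and both had the same direction as in H3K27ac. Dusp16 ranked in control HSCs at 3482, 4145, 775, 5619, 3813 and 4573, and in diabetic HSCs at 3541, 6371, 8544, 4592, 9288 and absent. Control unstimulated BMDMs stood at 22220, 12460, 18070, 9145, 10493 and 14422, and diabetic ones at 18087, 11492, 6842, 5934 and 5123. The ranges of all HSC and all unstimulated BMDM libraries overlapped. The difference was 1.14 (SE 0.36, adjusted p = 0.0317). It passed neither in control libraries alone (2.08, adjusted p = 0.0544) nor in diabetic libraries alone (0.19, adjusted p = 0.902). The call was lost when any of 6 libraries was left out. These were diabetic unstimulated BMDM 1 or 2, diabetic HSC 1 or 4, control unstimulated BMDM 1 and control HSC 3, with adjusted p-values of 0.0758, 0.0583, 0.0584, 0.0524, 0.0506 and 0.0683.

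Dusp4 had H3K4me3 ranks in control HSCs of 10640, 6196, 8481, 2975, 3707 and 8173, and in diabetic HSCs of 8508, 5015, 6020, 5790, 7531 and absent. The ranks were 1606, 393, 4540, 3063, 5000 and 4469 in control unstimulated BMDMs and 2004, 1924, 5380, 3664 and 2562 in diabetic ones. The ranges overlapped between 2975 and 5380. The difference was −1.39 (SE 0.47, adjusted p = 0.0461), and by fold enrichment it was −0.45 (adjusted p = 0.713). It did not pass the test when any of 15 libraries was left out, with adjusted p-values of 0.0503 to 0.0938. These were diabetic unstimulated BMDM 1, 2, 5 or 6, diabetic HSC 1, 2, 3, 4 or 6, control unstimulated BMDM 1 or 2 and control HSC 1, 2, 3 or 6. With list length as a covariate neither member passed (adjusted p = 0.120 for Dusp16 and 0.275 for Dusp4). Neither passed without the 4 control libraries in doubt in H3K27ac (1.09, adjusted p = 0.109, and −1.61, 0.0674) or the 4 in doubt in H3K4me3 (0.96, adjusted p = 0.226, and −1.96, 0.0544). The other 8 members had differences of −1.41 (Dusp3) to 0.48 (Dusp5), none of which passed the test.

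The next question was whether LPS+IFN-γ changed the marking of these inducible genes in BMDMs. No member's H3K27ac promoter rank passed the test (0 of 10, 2 at an unadjusted p under 0.05), beside 2.57% of all genes. Unstimulated libraries serve this comparison and the one with HSCs, so the values are not independent. Dusp1, the classical LPS-induced phosphatase, ranked in control LPS+IFN-γ BMDMs at 138, 201, 621, 677, 908 and 57 and in diabetic ones at 37, 1031, 200, 326, 572 and 405. These values lie within the range of the unstimulated libraries given above, and the difference was 0.76 (95% CI −0.64 to 2.16). Medians with LPS+IFN-γ were 8216 for Dusp2, 1261.5 for Dusp4, 3107.5 for Dusp5, 2163.5 for Dusp6, 5804.5 for Dusp7, 4066.5 for Dusp8, 1940.5 for Dusp10 and 1785 for Dusp16. Each of these members overlapped its unstimulated range.

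The largest difference was that of Dusp3. It ranked with LPS+IFN-γ at 4899, 3519, 1644, 5284, 1809 and 2637 in control and at 2150, 1188, 7472, 3031, 2218 and 2915 in diabetic BMDMs, against 314 to 3290 (median 1941) without. Ranges overlapped, and 9 of 12 stimulated libraries lay below the unstimulated median. The difference was −1.13 (SE 0.37, adjusted p = 0.0868). Without the 4 control libraries that went against their labels it was −1.58 (adjusted p = 0.0117), and without LPS+IFN-γ 5 and unstimulated 5 and 6 it was −1.44 (adjusted p = 0.0178). Over all genes, those fits called 1063 and 932 genes against 337 with every library. The libraries left out were doubted for their stimulation pattern in these same lists. Leaving them out favors a difference, so these p-values are not support for one.

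Of the 45 regions, 1 differed with LPS+IFN-γ, beside 3.63% of all regions (10 of the 45 had an unadjusted p under 0.05). It was the second Dusp3 region, at chr11:101980408-101983876, which ranked from 8492 to 20150 in unstimulated BMDMs (median 12062) and from 12142 to 51983 with LPS+IFN-γ (median 22901.5). It was within 20000 in 10 of 11 and in 5 of 12 libraries, with overlapping ranges. The difference was −0.59 (SE 0.12, adjusted p = 0.00354). It did not pass when ranks were divided by list length (adjusted p = 0.226), when peaks were ranked by fold enrichment (0.165) or in control libraries alone (0.815). The Dusp3 promoter region passed without control LPS+IFN-γ 5 (−1.20, adjusted p = 0.0496) or control unstimulated 5 (−1.24, 0.0471). A Dusp1 region 24.4 kb before the start, at chr17:26531899-26533889, passed without control unstimulated 1 (0.76, adjusted p = 0.0321), and a Dusp6 flanking region without diabetic LPS+IFN-γ 6 (0.20, 0.0475).

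In H3K4me3 limma called 0 of 10 members for LPS+IFN-γ, and none had an unadjusted p under 0.05. Over all genes 0% were called and 831 had an unadjusted p under 0.05. Dusp10 had the largest difference, with ranks of 470 to 14193 (median 3626) without and 75 to 11511 (median 1927) with LPS+IFN-γ. The ranges overlapped nearly whole, and the difference was 0.87 (SE 0.66, adjusted p = 0.915). It turned to −0.32 in control libraries alone, and was 0.48 and 0.81 without either set of 4 control libraries.

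The diabetic and control groups were compared within each cell state, the question being whether hyperglycemia left a mark at these genes. No member passed in any state or mark, nor did any of their 45 regions. In HSCs, 0 of 10 members were called in H3K27ac by limma (0 at an unadjusted p under 0.05), beside 0% of all genes, of which 276 had an unadjusted p under 0.05. Dusp8 had the largest difference there, with ranks of 1257 to 7592 (median 4316.5) in control and 699 to 6143 (median 3032) in diabetic HSCs. The groups overlapped, at 0.84 (SE 0.58, adjusted p = 1). The members' H3K27ac promoters in diabetic and control HSCs differed by −0.35 to 0.84.

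In unstimulated BMDMs 0 of 10 members were called in H3K27ac (2 at an unadjusted p under 0.05), beside 0% of all genes (693 unadjusted). Dusp1 had the largest difference. Of the values given above, 5 of 6 control libraries ranked at 572 or better and 5 of 5 diabetic libraries at 570 or worse, with medians of 196.5 and 843. The groups overlapped through control replicates 2 and 4, and the difference was −2.17 (SE 1.00, 95% CI −4.20 to −0.15, adjusted p = 0.909). Without the 4 control libraries it was −0.86 (adjusted p = 1). With LPS+IFN-γ the medians of Dusp1 were 411 in control and 365.5 in diabetic BMDMs. For LPS+IFN-γ BMDMs 0 of 10 members were called (0 unadjusted), beside 0% of all genes (524 unadjusted), and Dusp6 had the largest difference. It ranked at 3321, 2962, 1150, 2250, 368 and 1028 in control and at 2919, 3693, 7042, 1812, 2077 and 1730 in diabetic libraries, which overlapped (−0.95, SE 0.49, adjusted p = 1). It was −0.55 without control LPS+IFN-γ 5 and −0.25 by fold enrichment. For the difference between stimulation effects in diabetic and control BMDMs 0 of 10 were called, beside 0% of all genes (790 unadjusted). The 1 member at an unadjusted p under 0.05 was Dusp6 (−1.78, SE 0.72, adjusted p = 0.807). The largest difference was that of Dusp1 (2.2, SE 1.39, adjusted p = 0.864). By fold enrichment that value was 0.10 (adjusted p = 1), and without the 4 control libraries 0.54 (adjusted p = 1).

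**Figure D5:**
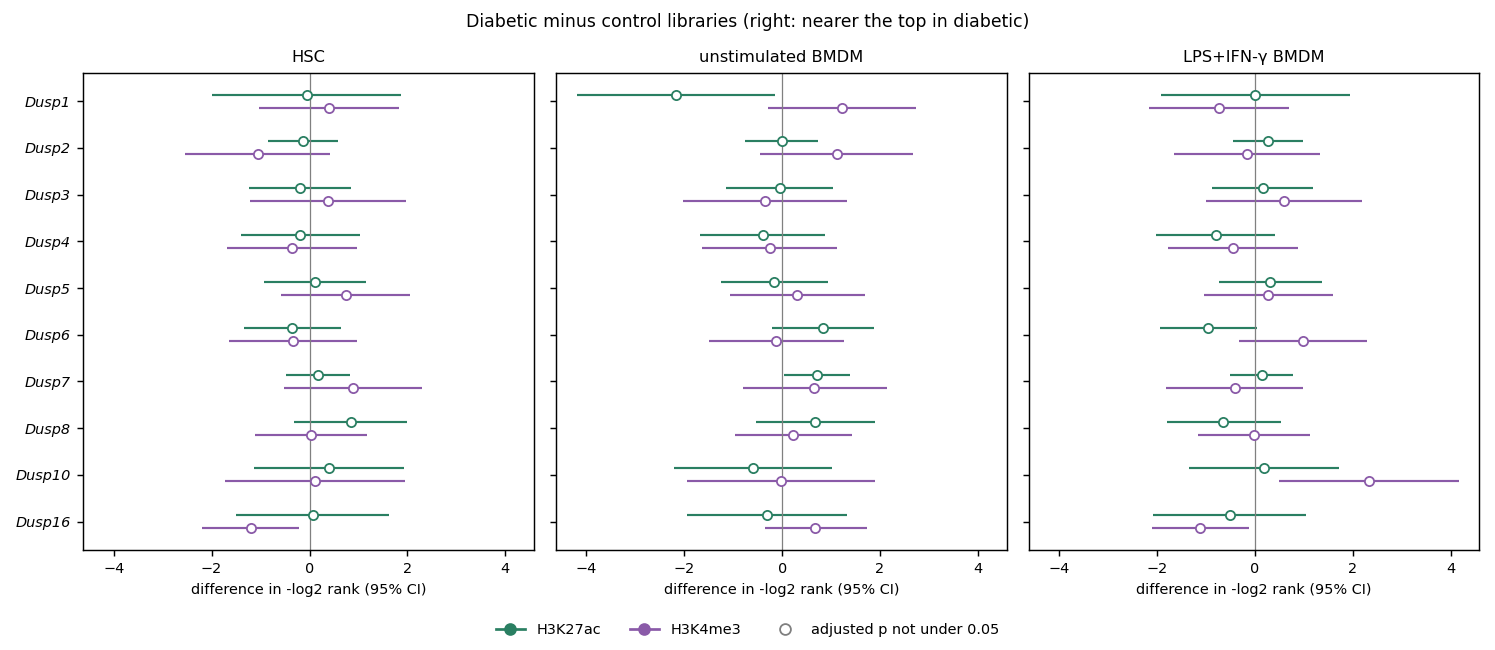
Difference in −log2 rank between diabetic and control libraries with its 95% confidence interval, for each member's promoter, in each cell state and mark. Positive values are toward the top of the list in diabetic libraries, and no point is filled because none had an adjusted p under 0.05. Most intervals cross 0, and those of Dusp1 are among the widest (−4.20 to −0.15 in unstimulated BMDMs, H3K27ac).

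H3K4me3 gave the same counts. In HSCs 0 of 10 were called (1 unadjusted), beside 0% of all genes (513 unadjusted), with the largest difference at Dusp16 (−1.20, SE 0.49, adjusted p = 1) from the values given above, which overlapped. In unstimulated BMDMs 0 of 10 were called (0 unadjusted), beside 0.00704% of all genes (535 unadjusted). Dusp1 ranked there at 14579, 6914, 3348, 4894, 1134 and 3173 in control and at 5124, 2653, 1743, 3915 and 218 in diabetic libraries. The groups overlapped (1.22, SE 0.75, adjusted p = 1). The difference was 0.46 without diabetic replicate 6, 0.43 when read at the RefSeq start alone, and 1.41 and 1.67 without either set of 4 control libraries.

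In LPS+IFN-γ BMDMs 0 of 10 were called in H3K4me3 (2 unadjusted), beside 0% of all genes (862 unadjusted). Dusp10 ranked at 10675, 5386, 754, 2350, 3158 and 11511 in control and at 1007, 10847, 1504, 389, 461 and 75 in diabetic libraries. All diabetic libraries but replicate 2 lay above the control median of 4272, and the groups overlapped (2.34, SE 0.91, 95% CI 0.50 to 4.17, adjusted p = 0.697). Dusp16 was named after its values were seen. It ranked at 3031, 6654, 6160, 1331, 7327 and 7524 in control and at 11075, 9955, 8293, 11016, 11704 and 7796 in diabetic libraries (−1.11, adjusted p = 0.754). The share of all genes with ranges so far apart was not counted, and the difference did not pass the test. For the difference between stimulation effects, 0 of 10 were called, beside 0% of all genes (733 unadjusted). The 1 member at an unadjusted p under 0.05 was Dusp16 (−1.79, SE 0.72, adjusted p = 0.935), and Dusp10 had the largest difference (2.37, SE 1.32, adjusted p = 0.942).

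Of the members' 45 H3K27ac regions, limma called 0 between diabetic and control HSCs (0 unadjusted), beside 0.00716% of all regions (962 unadjusted). It called 0 in unstimulated BMDMs (5 unadjusted), beside 0.0107% (1650 unadjusted), and 0 in LPS+IFN-γ BMDMs (3 unadjusted), beside 0% (1360 unadjusted). For the difference between stimulation effects it called 0 (7 unadjusted), beside 0% (1800 unadjusted). The largest differences were again at promoters, Dusp8 in HSCs (0.84), Dusp1 in unstimulated BMDMs (−2.28, adjusted p = 0.832, and −0.97 without the 4 control libraries) and Dusp6 in LPS+IFN-γ BMDMs (−0.95).

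The kinases that these phosphatases act on, and their activators, were read in the same way. Between HSCs and unstimulated BMDMs the counts in H3K27ac stand beside 33.9% of all genes, and 1 of 8 MAP kinases tested differed, Mapk14, which encodes p38α (0.63, adjusted p = 0.0380). Of 6 MAP kinase kinases 2 differed, both nearer the top in BMDMs, Map2k2 (MEK2, −2.15) and Map2k5 (MEK5, −1.15). Of 10 upstream kinases 4 differed, Map3k3 (−2.22), Map3k8 (TPL2, −1.69) and Map3k2 (−2.09) toward BMDMs and Map3k7 (TAK1, 1.72) toward HSCs. Of 9 downstream kinases 4 differed, Rps6ka4 (−1.15) and Mapkapk3 (−1.95) toward BMDMs and Rps6ka5 (0.68) and Mknk1 (0.54) toward HSCs. All 6 of the other feedback inhibitors differed, 3 in each direction, among them Spred1 (−2.08), Spred3 (−1.18), Spry1 (0.55) and Spry4 (0.64). In unstimulated BMDMs the geometric mean ranks of Spry1 and Spry4 were 16986 and 16274, near the rank limit of 20000. The calls of Spry1 and Spry4 are thus not taken as support for a difference. Of 11 other dual specificity phosphatases 3 differed, Dusp22 (−1.36), Dusp13 (−2.37) and Dusp9 (−0.33), all toward BMDMs. The geometric mean rank of Dusp9 was 19623 in HSCs, close to the rank limit of 20000, and 15609 in unstimulated BMDMs. The direction of its difference was thus largely fixed in advance, and its p-value is not support for a difference. The medians of these 6 lists lay between −0.42 and 0.31, and that of all genes was 0.14.

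With LPS+IFN-γ, 1 of 6 MAP kinase kinases, 1 of 10 upstream kinases and 1 of 11 other dual specificity phosphatases passed in H3K27ac, and 0 of the other lists, beside 2.57% of all genes. They were Map2k2 (−1.94, adjusted p = 0.0114), Map3k8 (−1.13, 0.0440) and Dusp9 (−0.35, 0.0307), all nearer the top without stimulation. The geometric mean rank of Dusp9 was 19916 with LPS+IFN-γ, again close to the limit of 20000, and 15609 without. The p-value of Dusp9 is thus not support for a difference here either. In H3K4me3, between HSCs and unstimulated BMDMs, 1 of 9 MAP kinases, 1 of 6 feedback inhibitors and 2 of 10 other dual specificity phosphatases passed, beside 12.3% of all genes. Mapk14 (2.2) and Dusp26 (0.74) were nearer the top in HSCs and Spry4 (−2.34) and Dusp23 (−1.11) in unstimulated BMDMs. The geometric mean rank of Dusp26 was 10209 in HSCs and 17078, near the limit, in unstimulated BMDMs. Its call is thus not taken as support for a difference. For LPS+IFN-γ 0 genes of the lists passed in H3K4me3, beside 0% of all genes. Between diabetic and control libraries 0 genes of the 6 lists passed in either mark.

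Across the 35 H3K27ac libraries, the gene at least 1 Mb away whose promoter rank followed each member most closely was named among 13102 genes by Pearson r of log2 rank. These correlations share cell state, library and list length, and are descriptions. The closest were Gstp1 for Dusp16 (r = 0.81), Tubb6 for Dusp3 (0.81), Cracr2b for Dusp7 (0.80) and Rbm47 for Dusp4 (0.78). They were Prdm4 for Dusp6 (0.75), Phf19 for Dusp2, Calhm2 for Dusp5 and Hint2 for Dusp10 (0.70 each), Ppp1r27 for Dusp1 (0.69) and Tom1l2 for Dusp8 (0.58). Among the members themselves, Dusp3 and Dusp4 went together most (r = 0.55), and Dusp7 and Dusp16 were the most opposed (r = −0.65).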

How the data were processed

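H3K27ac and H3K4me3 were measured by ChIP-seq, 1 library per sample. Per the submitters' processing notes, which give no settings or order, the tools were Trim Galore 0.3.3, cutadapt 1.8, FastQC 0.11.3, Bowtie2 2.2.6, Picard 2.18.14 and 2.19.2, bedtools 2.19.1 and MACS2 2.2.7.1, with the builds GRCm38 and mm10. Peaks were called per library against the input of the same number. The deposited lists give each peak a ratio, its fold enrichment over background, and the −log10 p and −log10 q that the authors' peak caller computed. The lowest −log10 q was 1.30, so lists stop near a q of 0.05. They hold no read counts, so depth is unknown, the number of reads behind a peak limits precision by an unknown amount, and a deeper or cleaner library gives a longer list and stronger p-values. Ranks within a list were used for this reason.

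Intervals split into several summits were joined, which gave 7828714 peaks on 21 chromosomes, none past a chromosome end of GRCm38. Start sites and genes came from GENCODE M21. For regions, the best 20000 peaks of each list of a mark were merged, and 27951 of 69574 H3K27ac regions found in at least 5 lists were tested. Genes needed a promoter peak within 20000 in at least 5 of 35 lists. Differences in −log2 rank, limited at 20000, were tested with limma 3.58.1 in R 4.3.3 (statmod 1.5.0, trend and robust), with 6 groups sharing 1 estimate of spread, Benjamini-Hochberg adjustment over every gene or region tested. A difference was called where the adjusted p was under 0.05. The fit was tested on simulated data. Python 3.11.15, numpy 2.4.6, pandas 2.3.3, scipy 1.17.1 and matplotlib 3.10.9 did the rest.

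The members, lists, tests and motifs were chosen with earlier results of these data known. All 10 members were described. Tests were given for members called (at most 3 regions each) or, with none called, for the one with the largest absolute difference. The exceptions were uncalled members in the H3K27ac comparison of HSCs, 1 more Dusp1 region, Dusp16 in H3K4me3, and Dusp6 in the H3K27ac difference between stimulation effects. At most 4 genes per pathway list, by lowest p, were named. Alternatives were another rank limit or none, rank divided by list length, rank by fold enrichment, narrower promoters, no filter, the groups compared only, list length as a covariate, the replicate number as a block, 1 disease group only, and leaving out each library or the doubted ones. A reading at RefSeq starts alone and the fits without 4 libraries were added after seeing the data. Replicate numbers were not taken as pairs. Inputs entered only as the background of the peak calls.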

Additional observations from a re-analysis of the deposited data

Results flagged for a closer look

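Of 120 groups of 5 or 6 libraries, 16 held a library whose log2 rank stood apart from the others by Dixon's test of the gap to the nearest neighbor, at the 95% critical value. Chance flags about 1 group in 20. The gap is given as a share of the group's range, and then the rank.

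In H3K27ac, Dusp4 in control unstimulated BMDM 2 (0.626) ranked at 64 against 759 to 3320 in the others, and Dusp16 in control HSC 2 (0.641) at 19 against 235 to 962. In control LPS+IFN-γ BMDM 1 2 of the 3 stress kinase phosphatases stood apart, Dusp16 (0.730) at 151 against 1423 to 3258 and Dusp8 (0.634) at 796 against 2951 to 6282. Dusp8 in control HSC 5 (0.664) ranked at 1257 against 4152 to 7592. Dusp7 in diabetic HSC 6 (0.746) was the only one of the H3K27ac set to stand below its group, at 12274 against 7752 to 8712.

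In H3K4me3, Dusp1 in diabetic HSC 3 (0.642) ranked at 633 against 3138 to 7674, and Dusp16 in control HSC 3 (0.758) at 775 against 3482 to 5619. Dusp3 in diabetic HSC 1 (0.749) stood below its group, at 32072 against 6262 to 8379. In unstimulated BMDMs, Dusp2 in control 4 (0.700) ranked at 4774 against 6563 to 7520, Dusp3 in control 5 (0.659) at 290 against 2941 to 9776, and Dusp8 in diabetic 6 (0.740) at 1107 against 3237 to 4715. Dusp4 stood apart in both LPS+IFN-γ groups, in control 2 (0.668) at 601 against 3444 to 8192 and in diabetic 3 (0.854) at 827 against 5552 to 7692. Dusp5 in diabetic LPS+IFN-γ 1 (0.708) ranked at 1214 against 4445 to 7598, and Dusp7 in diabetic LPS+IFN-γ 4 (0.869) at 866 against 4871 to 6318.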

How the results depend on the processing

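The count of 5 members called between HSCs and unstimulated BMDMs in H3K27ac was 4 to 6 under the alternatives, 4 in control libraries alone and 6 without the 3 doubted control BMDM libraries, except that ranking by fold enrichment gave 2. Over all genes that comparison called 2124 to 4620. With LPS+IFN-γ the H3K27ac count of 0 became 1 without the 3 doubted control BMDM libraries and 1 without the 4 that went against their labels, and genes called ranged from 0 to 1063. Those libraries were doubted on the same lists, so LPS+IFN-γ counts of genes or regions without them are not support for a difference. The H3K4me3 count of 2 for HSCs was the least stable. It was 0 with ranks limited at 10000, with list length as a covariate, without either set of 4 libraries in doubt, in control libraries alone and in diabetic libraries alone. It was 1 by fold enrichment, 1 without the 3 doubted libraries and 4 with ranks divided by list length, where Dusp3, Dusp6 and Dusp8 joined Dusp4 and Dusp16 was lost. Leaving out single libraries gave 0 to 2, and genes called ranged from 3 to 4516. With the replicate number as a block it was 1, since Dusp16 had an adjusted p of 0.0544. The replicate block changed no other count of members' promoters called, and it moved the region count for HSCs from 15 to 16. Deviations of same-numbered libraries had correlations of −0.24 to 0.35 in H3K27ac (9 of 39 pairs over 0.1) and −0.28 to 0.27 in H3K4me3 (6 of 39). In H3K27ac most of these were pairs of stimulated and unstimulated BMDMs, 3 of 6 in control (−0.21 to 0.26) and 3 of 5 in diabetic mice (0.05 to 0.35), where 3 of 6 stimulated libraries of either group correlated best with their own number. Not every pair was over 0.1, so the numbers were not taken as pairs. The H3K4me3 difference of Dusp10 with LPS+IFN-γ was −0.32 in control libraries alone.

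The 15 regions called for HSCs were 21 with no rank limit, 18 with ranks divided by list length, 9 by fold enrichment, 9 in control libraries alone, 10 in diabetic libraries alone or with ranks limited at 10000, and 14 to 16 without single libraries, with 3261 to 13814 of all regions. The 1 region called for LPS+IFN-γ was 0 with ranks limited at 10000, divided by list length, by fold enrichment or in control libraries alone, 2 without the 3 doubted libraries, 3 without the 4, and 1 to 2 without single libraries. All regions called there ranged from 0 to 2363, and from 0 to 12 and 0 to 25 for disease in HSCs and unstimulated BMDMs. Counted only among the top 10000 peaks, promoter occupancy was 338 of 350 in H3K27ac and 315 of 350 in H3K4me3, and at a −log10 q of at least 10 it was 334 in H3K4me3. The causes of these changes were not tested. No alternative called a member between diabetic and control libraries. Depth is unknown here, so small differences between lists of unequal length may not be detectable.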

Other observations

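In diabetic LPS+IFN-γ replicate 6 the promoter of Dusp10 ranked at 75 in the H3K27ac list and at 75 in the H3K4me3 list, the best rank of this gene in either mark. The fold enrichments were 20.0 and 13.5. This was noticed after the values were seen.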
